A study of Mus musculus with 7 samples.

Results

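The RUNX factors, their DNA-binding partner and a set of their cofactors were examined as 10 genes chosen by name: Runx1, Runx2, Runx3, Cbfb, Runx1t1, Cbfa2t2, Cbfa2t3, Tle1, Tle3 and Hipk2. All 10 were found by Ensembl identifier among the 28987 genes of the deposited table, and 9 passed the filter on low values in every fit. The exception was Runx1t1. RUNX proteins bind DNA through the runt domain and bind it more tightly as a heterodimer with core-binding factor beta, the product of Cbfb. They activate or repress target genes according to the proteins they recruit, and among the repressors are the Groucho proteins (Tle1, Tle3) and the ETO family (Runx1t1, Cbfa2t2, Cbfa2t3). RUNX1 is needed for the formation of blood stem cells in the embryo and for megakaryocyte and lymphoid maturation in adult bone marrow. RUNX2 is best known as the master regulator of osteoblasts, and RUNX3 for its part in T and NK cells.

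RNA was sequenced from bone marrow of individual C57BL/6 mice in 7 libraries. Hematopoietic stem and progenitor cells (HSC/P) were enriched for CD117 and sorted for the mutant clone, from RUNX1 mutant mice that overexpress HMGA2 (RUNX1mut/HMGA2-OE, 2 libraries) and from mice with HMGA2 overexpression alone (HMGA2-OE, 1 library). Ly6G+ myeloid cells were sorted, Ly6G being a neutrophil antigen, from RUNX1mut/HMGA2-OE, RUNX1mut, HMGA2-OE and Control mice (1 library each), and the protocol calls these cells mutant without saying how the Control was sorted. All HSC/P libraries thus carry HMGA2-OE, and the labels do not say which RUNX1 mutation was used, how either change was introduced, or the age of the mice. Values are TPM, a length-normalized measure of each gene's share of the transcripts in a library. How many reads stand behind each value is not known.

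The 3 HSC/P libraries listed between 12012 and 12449 genes at 1 TPM or more, and the 4 Ly6G+ libraries between 8559 and 10763. The RUNX1mut/HMGA2-OE Ly6G+ library stood apart, since the calprotectin gene S100a8 took 3.06% of its TPM against 39.9% to 54.6% in the other Ly6G+ libraries. The defining markers of both sorts were present. Kit, which encodes CD117, had 61.8 to 155 TPM in the HSC/P libraries, against 3.43 to 5.20 TPM in the Ly6G+ libraries. Ly6g had 7.28 to 16.8 TPM in RUNX1mut/HMGA2-OE HSC/P and 136 TPM in HMGA2-OE HSC/P, against 270 to 441 TPM in the Ly6G+ libraries. Because so few genes take up so much of the Ly6G+ transcripts, TPM of different libraries were put on a common scale before any test, with factors from 2.06 to 2.45 in HSC/P and from 0.365 to 0.876 in Ly6G+ cells. Levels below are deposited TPM unless they are called scaled.

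The start regions of the 3 RUNX genes are shown because these genes had the largest mutation differences of the members in HSC/P, and because they share a sequence that the rule for choosing them did not use. The windows are from RefSeq (GRCm38.p6), run 5′ to 3′ on the gene's strand and cover 250 bases before and 50 after the annotated start. Capitals mark the RUNX core motif, TGTGGT or its reverse complement ACCACA, searched on both strands.
Runx1, chr16:92826025-92826324, minus strand: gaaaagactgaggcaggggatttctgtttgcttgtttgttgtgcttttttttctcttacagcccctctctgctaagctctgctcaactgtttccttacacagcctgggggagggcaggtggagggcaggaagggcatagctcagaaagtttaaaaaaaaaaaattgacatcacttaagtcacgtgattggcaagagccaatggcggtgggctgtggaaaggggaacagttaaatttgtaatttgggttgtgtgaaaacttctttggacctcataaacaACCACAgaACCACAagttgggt
Runx2, chr17:44814578-44814877, minus strand: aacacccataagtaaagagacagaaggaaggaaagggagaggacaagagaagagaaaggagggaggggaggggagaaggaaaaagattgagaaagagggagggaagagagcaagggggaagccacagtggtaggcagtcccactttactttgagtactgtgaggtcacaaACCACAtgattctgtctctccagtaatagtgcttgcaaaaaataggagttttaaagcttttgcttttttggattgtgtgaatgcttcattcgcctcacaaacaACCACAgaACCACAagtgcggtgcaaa
Runx3, chr4:135120395-135120694, plus strand: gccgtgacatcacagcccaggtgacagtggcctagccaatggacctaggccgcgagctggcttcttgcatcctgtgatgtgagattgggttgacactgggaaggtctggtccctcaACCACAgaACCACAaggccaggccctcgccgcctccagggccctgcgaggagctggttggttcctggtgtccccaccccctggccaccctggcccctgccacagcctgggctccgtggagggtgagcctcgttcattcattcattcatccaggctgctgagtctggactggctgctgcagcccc

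Each of these 3 windows holds 2 ACCACA motifs whose first bases are 8 bases apart, and the Runx2 window holds another ACCACA upstream. The stretch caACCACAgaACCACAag, of 18 bases, is identical in all 3. It begins at window position 277 in Runx1 and 272 in Runx2, which is after the annotated start, and at position 115 in Runx3, which is before it. Of 32851 windows in the RefSeq table, 4 hold this stretch, and the fourth belongs to Gm16225, whose window covers the same place on chromosome 4 from the other strand. A pair of motifs at this spacing and orientation was in 7 windows (0.0213%), and at least 1 motif was in 16.8% of windows. The second annotated starts of Runx1 and Runx3 hold no motif in their windows. Of the other members, Cbfb, Cbfa2t2, Tle1 and Tle3 have 1 window each with no motif, Cbfa2t3 has 2 with no motif, Hipk2 has 1 match in 2 windows, and Runx1t1 is not in the table. A match is a run of letters only, and binding was not measured here.

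Runx1 (ENSMUSG00000022952, chr16:92601466-92826149, minus strand, mm10), the gene named in the genotype, had 219 and 225 TPM in RUNX1mut/HMGA2-OE HSC/P, against 18.9 TPM in HMGA2-OE HSC/P. In Ly6G+ cells it had 21.2 TPM in RUNX1mut/HMGA2-OE and 11.6 TPM in RUNX1mut, against 3.36 TPM in HMGA2-OE and 3.85 TPM in Control. The libraries with the mutation were above those without it in each cell type, with no overlap. In bulk samples, more cells of a type and more RNA per cell cannot be told apart. The table does not separate transcripts of an introduced or mutant allele from those of the normal gene. In HSC/P the difference was 3.33 ± 0.12 (SE) on the log2 scale (scaled TPM + 1), and in Ly6G+ cells the mutation term was 1.26 ± 0.12. Runx1 ranked 32 of 12226 genes by rise in HSC/P and 225 of 9820 in Ly6G+ cells.

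Runx3 (ENSMUSG00000070691, chr4:135120652-135177990, plus strand) had the largest mutation difference among the members in each fit. It had 338 and 245 TPM in RUNX1mut/HMGA2-OE HSC/P, against 19.8 TPM in HMGA2-OE HSC/P. In Ly6G+ cells it had 71.2 TPM in RUNX1mut/HMGA2-OE and 14.3 TPM in RUNX1mut, against 1.81 TPM in HMGA2-OE and 1.65 TPM in Control. Again no mutant library overlapped with those lacking the mutation. The difference was 3.64 ± 0.26 in HSC/P and 3.04 ± 0.40 in Ly6G+ cells on the log2 scale, which placed Runx3 at rank 22 and rank 6 by rise. In the fit to all 7 libraries the mutation term was 3.31 ± 0.27 for Runx3 (rank 3 of 12881 genes) and 2.04 ± 0.42 for Runx1 (rank 28). Without the HMGA2-OE HSC/P library the Runx1 term was 1.26, and over the other libraries left out in turn it reached 2.40. Over the same settings the Runx3 term stayed between 3.13 and 3.65.

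Runx2 (ENSMUSG00000039153, chr17:44495987-44814797, minus strand) had 24.5 and 23.2 TPM in RUNX1mut/HMGA2-OE HSC/P, against 8.49 TPM in HMGA2-OE HSC/P, a difference of 1.23 ± 0.18 on the log2 scale. In Ly6G+ cells it had 25.2 TPM in RUNX1mut/HMGA2-OE and 5.57 TPM in RUNX1mut, against 4.12 TPM in HMGA2-OE and 4.44 TPM in Control. Only the double mutant stood out there. After scaling, the RUNX1mut library, at 9.95 scaled TPM, lay between HMGA2-OE at 11.3 and Control at 9.52, so the groups overlapped. The Ly6G+ mutation term was 0.70 ± 0.37.

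**Figure D1:**
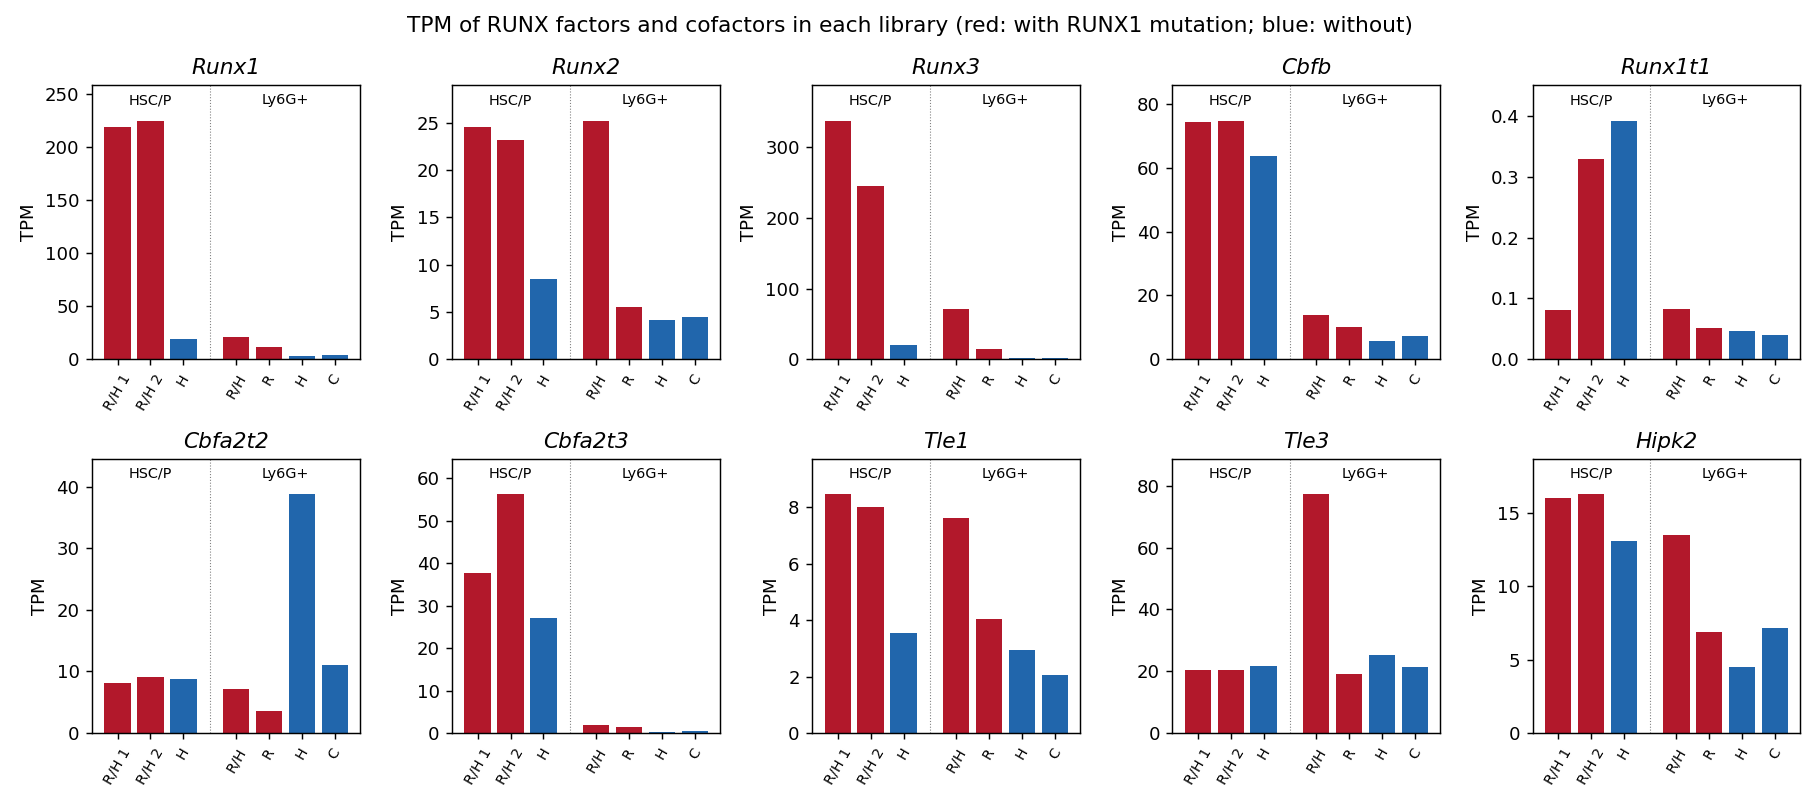
Deposited TPM (linear axis from 0) of each of the 10 genes, 1 bar per library, with R/H for RUNX1mut/HMGA2-OE, R for RUNX1mut, H for HMGA2-OE and C for Control. Runx1 and Runx3 are higher in the red bars (RUNX1 mutation) of both cell types, Cbfa2t2 peaks in HMGA2-OE Ly6G+ cells at 38.7 TPM, and Runx1t1 stays under 1 TPM.

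Sums of cell type markers differed between libraries with and without the mutation, some higher and some lower. In Ly6G+ cells the 5 megakaryocyte markers summed to 59.5 TPM in RUNX1mut/HMGA2-OE and 43.8 TPM in RUNX1mut, against 4.74 TPM in HMGA2-OE and 3.84 TPM in Control, with Ppbp at 0 in Control. The 8 stem and progenitor markers summed to 37.1 TPM in RUNX1mut/HMGA2-OE and 28.7 TPM in RUNX1mut, against 9.75 TPM in HMGA2-OE and 11.96 TPM in Control. Of these markers 7 of 8 reached 1 TPM in each mutant library, against 2 of 8 in HMGA2-OE and in Control. Over all genes 10763 and 9670 reached 1 TPM in those mutant libraries, against 8559 and 9096. The 5 mast cell and basophil markers summed to 35.1 TPM in RUNX1mut/HMGA2-OE and 88.1 TPM in RUNX1mut, against 18.5 TPM in HMGA2-OE and 10.9 TPM in Control. The 6 B lymphoid markers summed to 51.3 TPM in RUNX1mut/HMGA2-OE and 51.8 TPM in RUNX1mut, against 13.4 TPM in HMGA2-OE and 17.2 TPM in Control. The 5 erythroid markers summed to 867 TPM in RUNX1mut/HMGA2-OE and 193 TPM in RUNX1mut, against 46.1 TPM in HMGA2-OE and 45.9 TPM in Control. The neutrophil and monocyte sums were lower in both mutant libraries. The 10 neutrophil markers summed to 290138 TPM in RUNX1mut/HMGA2-OE and 554384 TPM in RUNX1mut, against 669798 TPM in HMGA2-OE and 594734 TPM in Control. The 5 monocyte markers summed to 748 TPM in RUNX1mut/HMGA2-OE and 850 TPM in RUNX1mut, against 1064 TPM in HMGA2-OE and 1446 TPM in Control. Of the neutrophil markers only S100a8 was lower in both mutant libraries on deposited TPM, while Retnlg and Camp were higher in both. Of the monocyte markers only Ly6c2 was lower in both. It had 663 TPM in RUNX1mut/HMGA2-OE and 788 TPM in RUNX1mut, against 1033 TPM in HMGA2-OE and 1411 TPM in Control. Csf1r, Ccr2, Cx3cr1 and Fcgr1 were higher in both. After scaling both mutant libraries stayed on the same side of both others for each of these sums, except for the mast cell and basophil markers. Their scaled sum was 40.1 in RUNX1mut/HMGA2-OE and 157 in RUNX1mut, against 50.6 in HMGA2-OE and 23.4 in Control, so the groups overlapped.

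In HSC/P the stem and progenitor markers summed to 877 and 863 TPM in RUNX1mut/HMGA2-OE, against 323 TPM in HMGA2-OE. The mast cell and basophil markers summed to 234 and 262 TPM in RUNX1mut/HMGA2-OE, against 35.1 TPM in HMGA2-OE. Most of this was Cpa3, with 192 and 189 TPM against 6.97 TPM. Prss34 was higher in both, and Mcpt8, Ms4a2 and Fcer1a overlapped. The megakaryocyte markers summed to 715 and 1927 TPM in RUNX1mut/HMGA2-OE, against 410 TPM in HMGA2-OE. Pf4 overlapped, with 339 and 983 TPM against 355 TPM, while Itga2b, Gp1bb, Gp9 and Ppbp were higher in both. The 10 neutrophil markers summed to 17628 and 18379 TPM in RUNX1mut/HMGA2-OE, against 61385 TPM in HMGA2-OE. The monocyte and erythroid sums were lower in value as well. Of the monocyte markers only Ly6c2 was lower in both, with 182 and 176 TPM in RUNX1mut/HMGA2-OE, against 715 TPM in HMGA2-OE. Csf1r was higher on deposited TPM, with 42.6 and 18.5 TPM against 15.8 TPM, but overlapped after scaling. Ccr2, Cx3cr1 and Fcgr1 overlapped on deposited TPM. The 5 monocyte markers summed to 281 and 213 TPM in RUNX1mut/HMGA2-OE, against 752 TPM in HMGA2-OE, and the erythroid markers to 663 and 1073 TPM in RUNX1mut/HMGA2-OE, against 1338 TPM in HMGA2-OE. The 7 dendritic cell markers overlapped, with 116 and 75.9 TPM in RUNX1mut/HMGA2-OE and 80.6 TPM in HMGA2-OE. The 9 T and NK cell markers, cells in which Runx3 is well known, summed to 11.99 and 10.2 TPM in RUNX1mut/HMGA2-OE HSC/P, with Cd3e at 0 in both, against 11.9 TPM in HMGA2-OE HSC/P. In Ly6G+ cells they summed to 20.9 TPM in RUNX1mut/HMGA2-OE and 9.98 TPM in RUNX1mut, against 13.4 TPM in HMGA2-OE and 6.57 TPM in Control. There 6 of 9 reached 1 TPM in RUNX1mut/HMGA2-OE and 5 of 9 in RUNX1mut, against 1 of 9 in HMGA2-OE and in Control. These counts are on deposited TPM, where more genes of any kind reached 1 TPM in the mutant libraries. That number was 10763 in RUNX1mut/HMGA2-OE and 9670 in RUNX1mut, against 8559 in HMGA2-OE and 9096 in Control. On deposited TPM, Ncr1, Il2rb, Klrb1c, Lck, Cd8a and Cd4 were higher in both mutant libraries, at low levels. Cd3d, Cd3e and Cd3g overlapped. Cd3d, the largest part, had 8.54 and 3.01 TPM in those libraries, against 10.2 TPM in HMGA2-OE and 5.25 TPM in Control. The 5 osteoblast markers summed to at most 2.11 TPM in a library, and the bone factor Sp7 was at 0 in 6 of 7. The part of these other cells in the RUNX values was not tested.

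With scaling, none of the RUNX differences passed correction for all genes. In HSC/P, limma with Benjamini-Hochberg adjustment called 0 of 9 members tested and 0% of 12226 genes, while 1908 had an unadjusted p under 0.05. Adjusted p was 0.112 for Runx1 and Runx3 and 0.154 for Runx2. The value of 0.112 was the smallest in this fit and was shared with other genes, Runx1 ranking 2 and Runx3 ranking 25 by p. In Ly6G+ cells it called 0 of 9 members and 0% of 9820 genes, while 1407 had an unadjusted p under 0.05, and adjusted p was 0.331 for Runx1 and Runx3 and 0.455 for Runx2. In the 7-library fit it called 0 of 9 members and 0% of 12881 genes, while 1536 had an unadjusted p under 0.05, and adjusted p was 0.120 for Runx3, 0.2995 for Runx1 and 0.381 for Runx2. The spread in the first 2 fits rests on 1 residual degree of freedom, and in the third on 3. No Ly6G+ genotype has a replicate, so the error in that fit measures departure from additive effects of the mutation and HMGA2-OE. Without scaling Runx3 passed in Ly6G+ cells (3.61, adjusted p = 0.00336 in limma) and in the 7-library fit (3.68, adjusted p = 0.00515), as did Runx1 in the 7-library fit (2.51, adjusted p = 0.0235).

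By size, 3 of 9 members (Runx1, Runx2 and Runx3) were higher by at least 1 on the log2 scale in HSC/P, against 6.06% of genes. In Ly6G+ cells 2 of 9 were (Runx1 and Runx3), against 3.87% of genes, and the same 2 were in the 7-library fit, against 2.24%. Scaled values lay above those of HMGA2-OE in both RUNX1mut/HMGA2-OE HSC/P libraries for 6 of 9 members, against 32.3% of genes. In Ly6G+ cells both mutant libraries lay above both others for 3 of 9, against 22.9% of genes. Runx1, Runx3 and Cbfa2t3 did so in both cell types, 3 of 9 members against 7.83% of genes. Without the RUNX1mut/HMGA2-OE Ly6G+ library the same 3 members did, against 11.5% of genes, and on unscaled TPM 6 members did, against 31.9% of genes. The genes were proposed with earlier results of these data known, so these shares are a description.

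The shares of Runx2 and Runx3 in the family's RNA differed between libraries with and without the mutation, and these shares are values with no test. The 3 genes summed to 581 and 494 TPM in RUNX1mut/HMGA2-OE HSC/P, against 47.1 TPM in HMGA2-OE HSC/P. In Ly6G+ cells the sum was 118 TPM in RUNX1mut/HMGA2-OE and 31.5 TPM in RUNX1mut, against 9.29 TPM in HMGA2-OE and 9.95 TPM in Control. Runx3 made up 60.5% of that sum in RUNX1mut/HMGA2-OE Ly6G+ cells and 45.5% in RUNX1mut, against 19.4% in HMGA2-OE and 16.6% in Control. Runx2 was the largest part in the Ly6G+ libraries without the mutation, with 44.4% in HMGA2-OE and 44.6% in Control, against 21.4% in RUNX1mut/HMGA2-OE and 17.7% in RUNX1mut. In HSC/P, Runx2 made up 4.23% and 4.70% in RUNX1mut/HMGA2-OE, against 18.0% in HMGA2-OE. The share of Runx1 was 37.7% and 45.6% in RUNX1mut/HMGA2-OE HSC/P, against 40.0% in HMGA2-OE HSC/P.

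Cbfb (ENSMUSG00000031885, chr8:105170674-105217989, plus strand), whose product pairs with any of the RUNX proteins, differed little with the mutation. It had 74.4 and 74.8 TPM in RUNX1mut/HMGA2-OE HSC/P, against 63.8 TPM in HMGA2-OE HSC/P. In Ly6G+ cells it had 13.9 TPM in RUNX1mut/HMGA2-OE and 10.3 TPM in RUNX1mut, against 5.59 TPM in HMGA2-OE and 7.40 TPM in Control. After scaling the values overlapped in HSC/P, with 31.4 and 30.5 scaled TPM in RUNX1mut/HMGA2-OE and 30.9 in HMGA2-OE, and the Ly6G+ values lay between 15.3 and 18.3. The log2 difference was 0.06 ± 0.13 in HSC/P (95% interval -0.31 to 0.42) and 0.19 ± 0.12 in Ly6G+ cells (-0.24 to 0.61). There were thus 7.81 and 6.603 RUNX transcripts per Cbfb transcript in RUNX1mut/HMGA2-OE HSC/P, against 0.739 in HMGA2-OE HSC/P. In Ly6G+ cells this ratio was 8.49 in RUNX1mut/HMGA2-OE and 3.07 in RUNX1mut, against 1.66 in HMGA2-OE and 1.34 in Control. The ratio is taken within a library and does not depend on the scaling. HMGA2-OE HSC/P was the only library with fewer RUNX than Cbfb transcripts.

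**Figure D2:**
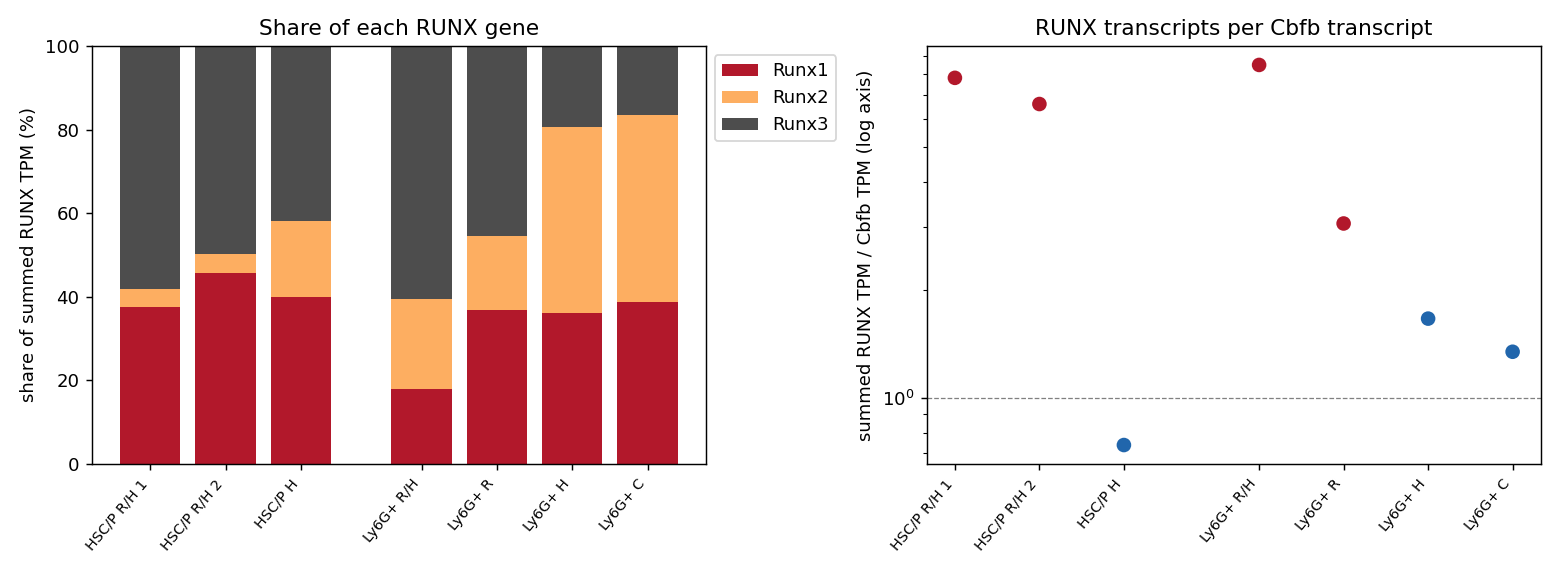
Left, the share of Runx1, Runx2 and Runx3 in their summed TPM (percent) in each library; right, summed RUNX TPM divided by Cbfb TPM on a log axis, red with and blue without the RUNX1 mutation, with a dashed line at 1. The 4 mutant libraries lie between 3.07 and 8.49 RUNX transcripts per Cbfb transcript and the others between 0.739 and 1.66.

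Of the ETO family, Cbfa2t3 (chr8:122625141-122699109, minus strand), whose product ETO2 works in a complex with the erythroid factors TAL1 and GATA1, had 37.6 and 56.2 TPM in RUNX1mut/HMGA2-OE HSC/P, against 27.0 TPM in HMGA2-OE HSC/P. In Ly6G+ cells it had 1.82 TPM in RUNX1mut/HMGA2-OE and 1.45 TPM in RUNX1mut, against 0.181 TPM in HMGA2-OE and 0.369 TPM in Control. Mutant libraries were higher in each cell type, at low levels in Ly6G+ cells. The mutation term in the 7-library fit was 0.82 ± 0.20 (adjusted p = 0.342 in limma), with 0.58 ± 0.27 in HSC/P, where it was 0.88 without replicate 1 and 0.34 without replicate 2 of the mutant pair.

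Cbfa2t2 (chr2:154436481-154539356, plus strand), which encodes the relative MTGR1, was lower in the mutant Ly6G+ libraries. It had 8.10 and 9.14 TPM in RUNX1mut/HMGA2-OE HSC/P, against 8.78 TPM in HMGA2-OE HSC/P. In Ly6G+ cells it had 7.17 TPM in RUNX1mut/HMGA2-OE and 3.59 TPM in RUNX1mut, against 38.7 TPM in HMGA2-OE and 10.98 TPM in Control. The HSC/P groups overlapped, while both mutant Ly6G+ libraries were below both others. How many of all genes show this lower order was not counted. The Ly6G+ mutation term was -2.45 ± 0.57 on the log2 scale (adjusted p = 0.331 in limma). It was 0.34 times the Control value in RUNX1mut and 0.10 times the HMGA2-OE value in RUNX1mut/HMGA2-OE on scaled TPM + 1. The HMGA2-OE library was 4.33 times Control on that scale, and no library repeats it. Runx1t1 (chr4:13743436-13893649, plus strand), which encodes ETO, was between 0.0395 and 0.392 TPM in the 7 libraries and was not tested. Cbfa2t3 made up 82.1% and 85.6% of the family's TPM in RUNX1mut/HMGA2-OE HSC/P and 74.6% in HMGA2-OE HSC/P, against 0.464% to 28.5% in Ly6G+ libraries.

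Of the Groucho genes, Tle1 lies at chr4:72117142-72200919 (minus strand) and Tle3 at chr9:61372366-61418497 (plus strand). Tle1 had 8.46 and 8.02 TPM in RUNX1mut/HMGA2-OE HSC/P, against 3.55 TPM in HMGA2-OE HSC/P. In Ly6G+ cells it had 7.62 TPM in RUNX1mut/HMGA2-OE and 4.03 TPM in RUNX1mut, against 2.95 TPM in HMGA2-OE and 2.05 TPM in Control. The HSC/P groups did not overlap, and the Ly6G+ groups overlapped after scaling. The log2 difference was 0.88 ± 0.23 in HSC/P and 0.37 ± 0.19 in Ly6G+ cells.

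Tle3 had 20.4 and 20.3 TPM in RUNX1mut/HMGA2-OE HSC/P, against 21.8 TPM in HMGA2-OE HSC/P. In Ly6G+ cells it had 77.2 TPM in RUNX1mut/HMGA2-OE and 19.0 TPM in RUNX1mut, against 25.4 TPM in HMGA2-OE and 21.4 TPM in Control. On deposited TPM the double mutant Ly6G+ library alone was high. After scaling Tle3 had 88.1 scaled TPM in RUNX1mut/HMGA2-OE and 34.0 in RUNX1mut, against 69.5 in HMGA2-OE and 45.8 in Control, so the groups overlapped. The Tle3 mutation term was -0.26 ± 0.17 in HSC/P and 0.04 ± 0.25 in Ly6G+ cells, with 95% intervals of -0.74 to 0.22 and -0.81 to 0.88. There were 2.41 and 2.53 Tle3 transcripts per Tle1 transcript in RUNX1mut/HMGA2-OE HSC/P, against 6.14 in HMGA2-OE HSC/P. In Ly6G+ cells the ratio was 10.1 in RUNX1mut/HMGA2-OE and 4.72 in RUNX1mut, against 8.59 in HMGA2-OE and 10.4 in Control.

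Hipk2 (chr6:38694390-38876165, minus strand), which encodes a kinase that phosphorylates RUNX1, had 16.02 and 16.2 TPM in RUNX1mut/HMGA2-OE HSC/P, against 13.1 TPM in HMGA2-OE HSC/P. In Ly6G+ cells it had 13.5 TPM in RUNX1mut/HMGA2-OE and 6.87 TPM in RUNX1mut, against 4.52 TPM in HMGA2-OE and 7.12 TPM in Control. Scaled Ly6G+ values overlapped, between 12.3 and 15.4. The mutation term was 0.12 ± 0.18 in HSC/P (95% interval -0.39 to 0.64) and 0.07 ± 0.20 in Ly6G+ cells (-0.62 to 0.76).

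**Figure D3:**
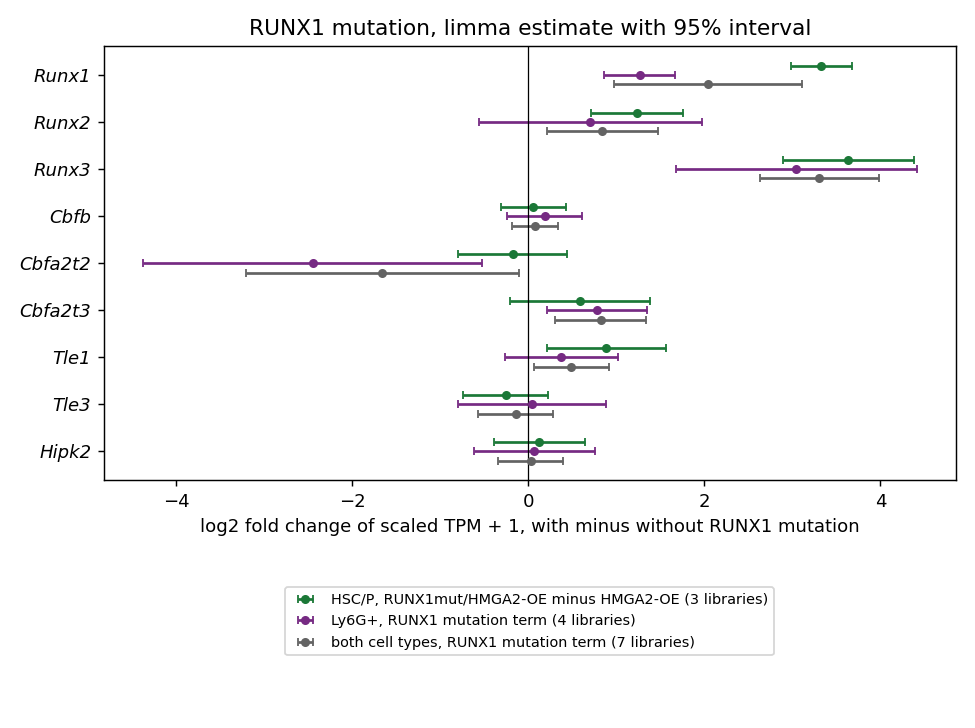
Log2 fold change of scaled TPM + 1 with minus without the RUNX1 mutation, as limma estimates with 95% intervals, for the 9 members above the filter in HSC/P (3 libraries), Ly6G+ cells (4 libraries) and both (7 libraries). Runx3 lies above 3 in each fit, Cbfa2t2 lies below -2 in Ly6G+ cells alone, and Cbfb and Hipk2 stay near 0.

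Whether the mutation's difference itself differed between the cell types was tested in the 5 libraries with HMGA2-OE. The interaction was 1.96 ± 0.18 for Runx1 and 3.42 ± 0.23 for Cbfa2t2 on the log2 scale, positive where the difference was higher in HSC/P. Only the RUNX1mut/HMGA2-OE HSC/P pair is replicated here, so these SE hold no spread between Ly6G+ libraries. The Cbfa2t2 value draws on the single HMGA2-OE Ly6G+ library, at 38.7 TPM. For Runx3 it was -0.24 ± 0.41 and for Runx2 -0.11 ± 0.21, with 95% intervals of -1.57 to 1.08 and -0.80 to 0.58. Limma called 0 of 9 members and 0% of 12686 genes, while 2297 had an unadjusted p under 0.05, and adjusted p was 0.134 for Runx1 and 0.122 for Cbfa2t2. Without scaling, where the median of all genes was -0.77, the interaction was 1.14 for Runx1, 2.26 for Cbfa2t2, -0.89 for Runx3 and -0.96 for Runx2. With no filter on low values the adjusted p of Runx1 and Cbfa2t2 became 0.0226 and 0.0392. That setting called 3250 genes, of which 2703 had equal values in the mutant HSC/P pair and so no spread.

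HMGA2-OE as such was tested in Ly6G+ cells, where limma called 0 of 9 members and 0% of 9820 genes, and 639 genes had an unadjusted p under 0.05. Hmga2 itself had 3.72 TPM in HMGA2-OE and 12.1 TPM in RUNX1mut/HMGA2-OE there, against 1.36 TPM in RUNX1mut and 1.45 TPM in Control. In the HSC/P libraries it had 138 to 176 TPM. The HMGA2-OE term was 1.20 ± 0.57 for Cbfa2t2, 0.98 ± 0.40 for Runx3, 0.98 ± 0.25 for Tle3 and 0.81 ± 0.37 for Runx2, each at adjusted p between 0.741 and 0.743. In the single pair of HMGA2-OE over Control 1 of 9 members was at least 2-fold higher (Cbfa2t2), against 3.27% of genes, and 0 were 2-fold lower, against 3.19%. In RUNX1mut/HMGA2-OE over RUNX1mut, Runx2, Runx3 and Tle3 were, 3 of 9 against 3.97% of genes, with ratios of 2.62, 3.06 and 2.54, while 0 members were 2-fold lower, against 4.39%.

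For the mutation, RUNX1mut over Control was at least 2-fold for Runx1 (2.34) and Runx3 (5.32), 2 of 9 against 5.36% of genes, and below 0.5 for Cbfa2t2, 1 of 9 against 3.56%. RUNX1mut/HMGA2-OE over HMGA2-OE was at least 2-fold for Runx1 (2.46), Runx2 (2.43) and Runx3 (12.8), 3 of 9 against 4.93% of genes. It was below 0.5 for Cbfa2t2, 1 of 9 against 4.99%. These pairs have no replicate and no test, and those that use the same library share its error.

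Between cell types, HSC/P minus Ly6G+ in the 7-library fit passed for 7 of 9 members, against 64.4% of all genes. Of these, 2 were higher in HSC/P, against 31.4% of genes, and 5 were lower, against 33% of genes. Cbfa2t3 was higher by 2.92 ± 0.24 on the log2 scale (adjusted p = 4.26e-04 in limma) and Cbfb by 0.93 ± 0.12 (adjusted p = 0.00173). Tle3 fell by 2.95 ± 0.20 (adjusted p = 2.39e-04) in HSC/P relative to Ly6G+ cells. Cbfa2t2 differed by -2.43 ± 0.73 (adjusted p = 0.0317), Tle1 by -1.40 ± 0.20 (adjusted p = 0.00242), Runx2 by -1.31 ± 0.30 (adjusted p = 0.0123) and Hipk2 by -0.97 ± 0.17 (adjusted p = 0.00536), all in limma. Runx1 at 1.13 ± 0.50 and Runx3 at 0.72 ± 0.32 did not pass (adjusted p = 0.0994 and 0.0971 in limma). All 3 HSC/P libraries lay above all 4 Ly6G+ libraries for Cbfb and Cbfa2t3, 2 of 9 members against 35.1% of genes.

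The cell type differences depended on the scaling. Without scaling 8356 of 9544 genes called were higher in HSC/P, against 4042 of 8296 with it, and the share of genes with all HSC/P libraries above all Ly6G+ libraries was 66.5%. The median of all genes then moved to 1.45 higher in HSC/P, against 0.06 with it, and the values of Runx2 (0.41), Tle1 (0.16) and Hipk2 (0.76) changed sign, though all 3 stayed under that median. Cbfa2t3 and Cbfb stayed higher and Tle3 stayed lower, and passed, under each of the 3 scalings. Runx1 and Runx3 passed as higher with upper-quartile scaling (1.64 and 1.23) and without scaling (2.92 and 2.46). With upper-quartile scaling Runx2 (-0.82), Cbfa2t2 (-1.97) and Hipk2 (-0.48) no longer passed. Cbfa2t2 also lost its call without scaling (-0.71, adjusted p = 0.182 in limma) and with no filter on low values (-2.18, adjusted p = 0.0888). Cbfa2t2 passed without the RUNX1mut/HMGA2-OE Ly6G+ library (-3.92) and lost its call when any of the other 6 was left out, with -1.26 without HMGA2-OE Ly6G+ and -1.44 without HMGA2-OE HSC/P. Runx2 lost its call without RUNX1mut/HMGA2-OE Ly6G+ (-0.97) or HMGA2-OE HSC/P (-1.13), and Hipk2 without RUNX1mut/HMGA2-OE Ly6G+ (-0.76). Runx1 passed without HMGA2-OE HSC/P (1.90), and Runx3 without Control or without RUNX1mut Ly6G+ (0.67 in each).

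**Figure D4:**
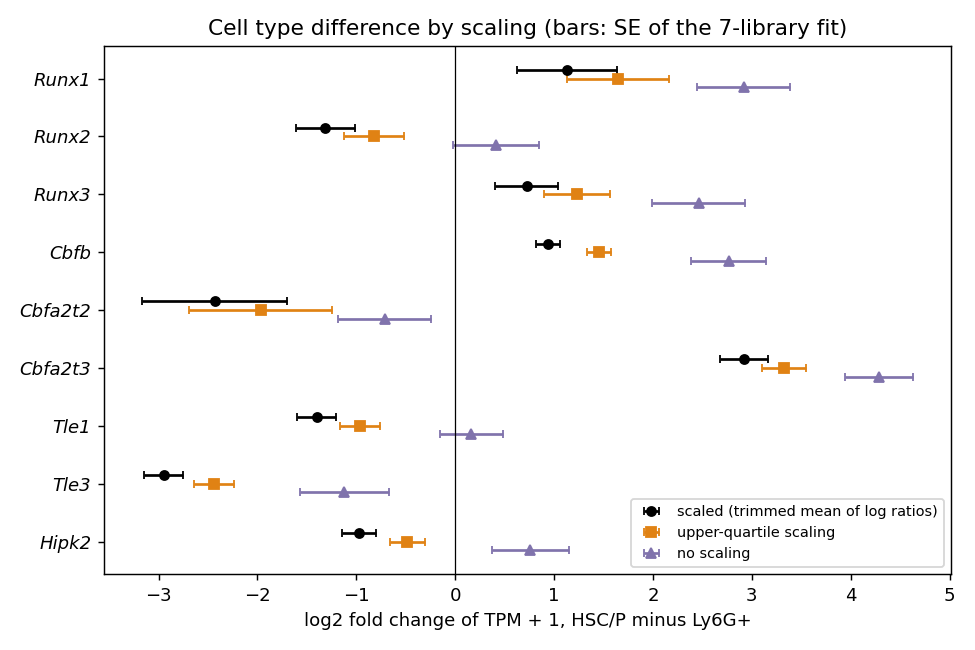
Log2 fold change of TPM + 1, HSC/P minus Ly6G+, in the 7-library fit for 9 members under 3 scalings, with SE as bars. Cbfa2t3 and Cbfb are above 0 and Tle3 below it in each, while Runx2, Tle1 and Hipk2 change sign without scaling.

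The annotation around the members limits what their TPM can separate. Runx3 has 6 annotated transcripts in GENCODE M21, 2 of them of 350 to 420 nt, a feature that 16% of the named genes in the table share, and the part of such short transcripts in its TPM was not tested. Of the 31-base words in its transcripts, 1.44% occur in another gene, and the share is 0.795% for Runx1 and 6.39% for Runx2. Just 9 of 12077 Runx1 words occur in Runx3 or Runx1t1. Gm16224, an antisense gene inside an intron of Runx3 with no shared exon bases, had 68.6 TPM in RUNX1mut/HMGA2-OE Ly6G+ cells and 2.64 TPM in RUNX1mut, against 3.24 TPM in HMGA2-OE and 7.24 TPM in Control. In HSC/P it had 7.98 and 11.1 TPM in RUNX1mut/HMGA2-OE, against 0.749 TPM in HMGA2-OE. Runx2os1, antisense to Runx2 with 519 of its 792 exon bases in Runx2 exons, had 5.47 and 6.33 TPM in RUNX1mut/HMGA2-OE HSC/P, against 0.912 TPM in HMGA2-OE HSC/P. Whether counting used the strand is not given in the sources used here, and without it reads from the exon bases that Runx2os1 shares with Runx2 cannot be told apart.

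Other genes of the RUNX pathway, in 5 lists, gave 0 calls for the mutation, as did all genes (0%). Over all genes the mutation term of the 7-library fit was above 0 for 46.3%. Among the partner transcription factors 8 of 14 were higher and 6 lower in the 7-library fit, 0 passed, and the median was 0.05 on the log2 scale, against -0.02 over all genes. Those with the smallest p were Gata2 (1.44 ± 0.21), a stem cell and mast cell factor, Ets1 (-0.68 ± 0.10), Gfi1 (-0.82 ± 0.21), a transcriptional repressor needed for granulocyte development, and Cebpa (-0.61 ± 0.16), a factor of granulocyte commitment. Adjusted p lay between 0.220 and 0.350 in limma. Gata2 had 81.8 and 118 TPM in RUNX1mut/HMGA2-OE HSC/P, against 33.6 TPM in HMGA2-OE HSC/P. In Ly6G+ cells it had 2.69 TPM in RUNX1mut/HMGA2-OE and 2.27 TPM in RUNX1mut, against 0.269 TPM in HMGA2-OE and 0.170 TPM in Control.

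Coactivators had 2 of 7 higher, 5 lower, 0 passing and a median of -0.14. Named among them are the acetyltransferase genes Ep300 (-0.26 ± 0.14) and Kat6a (-0.14 ± 0.12) and the methyltransferase gene Carm1 (-0.14 ± 0.14). Corepressors had 5 of 11 higher, 6 lower, 0 passing and a median of -0.09. In that list Tle2, another Groucho gene, differed by 1.60 ± 0.32, while Hdac1 (-0.23 ± 0.10) and Ncor1 (-0.22 ± 0.12) were lower in value. Tle2 had 19.7 and 27.8 TPM in RUNX1mut/HMGA2-OE HSC/P, against 2.31 TPM in HMGA2-OE HSC/P. In Ly6G+ cells it had 2.47 TPM in RUNX1mut/HMGA2-OE and 1.20 TPM in RUNX1mut, against 0.404 TPM in HMGA2-OE and 0.102 TPM in Control, with no overlap in either cell type.

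Modifiers had 5 of 12 higher, 7 lower, 0 passing and a median of -0.04, with the kinase genes Mapk3 (-0.29 ± 0.10), Cdk6 (0.44 ± 0.21) and Hipk1 (-0.11 ± 0.14). Reported RUNX targets had 13 of 16 higher, against 46.3% of all genes, with 3 lower, 0 passing and a median of 0.61. Of the named ones, 2 are megakaryocyte genes, namely the integrin gene Itga2b (3.48 ± 0.45) and the chemokine gene Pf4 (1.94 ± 0.64), and Nfe2, a megakaryocyte and erythroid factor, differed by -0.39 ± 0.13. Adjusted p of these 3 genes lay between 0.220 and 0.386 in limma. Itga2b and Pf4 are also among the megakaryocyte markers above, and Gata2 is among the stem and progenitor markers. Between cell types, where 31.4% of all genes passed as higher in HSC/P and 33% as lower, the partner factors had 8 of 14 higher and 4 lower. The corepressors had 4 of 11 higher and 1 lower, the coactivators 3 of 7 higher and 3 lower, the modifiers 2 of 12 higher and 4 lower, and the reported targets 6 of 16 higher and 6 lower.

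Genes with the most similar pattern were ranked by Pearson correlation of log2(TPM + 1) over the 7 libraries among 8692 named genes that reached 10 TPM. For Runx1 these were Itsn1, Snx9, Tubb6, Rras and Cpa3, with r from 0.992 to 0.996. For Runx3 they were Smad1, Zfand5, Gimap9, B9d2 and Zfp523, with r from 0.981 to 0.994. The 7 libraries fall into 2 cell types on unscaled values, so such r describe shared order and come without a test. Cpa3, a mast cell protease gene and one of the mast cell and basophil markers above, had 192 and 189 TPM in RUNX1mut/HMGA2-OE HSC/P, against 6.97 TPM in HMGA2-OE HSC/P. In Ly6G+ cells Cpa3 had 8.24 TPM in RUNX1mut/HMGA2-OE and 8.51 TPM in RUNX1mut, against 0.550 TPM in HMGA2-OE and 0.832 TPM in Control. Smad1, a mediator of BMP signalling, had 13.2 and 12.5 TPM in RUNX1mut/HMGA2-OE HSC/P, against 4.91 TPM in HMGA2-OE HSC/P. It had 8.89 TPM in RUNX1mut/HMGA2-OE and 3.999 TPM in RUNX1mut Ly6G+ cells, against 1.33 TPM in HMGA2-OE and 1.33 TPM in Control.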

How the data were processed

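RNA sequencing values of 7 libraries were used. The authors deposited 1 table of expression values. They were taken as TPM because they are not whole and sum to between 896820 and 993009 per column. Per the submitters' processing notes, bcl2fastq, CASAVA 1.8, kallisto and build mm10 were used. Which transcript index and kallisto version were used is not stated there. The deposited TPM keep no read counts, so depth and counting error are unknown. Symbols came from GENCODE M21 for 27458 of 28987 identifiers, and promoters from RefSeq GRCm38.p6.

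A gene entered a fit if 2 or more of its libraries reached 1 TPM. Libraries were scaled with a trimmed mean of log ratios, without weights (0.3 of ratios and 0.05 of levels trimmed), and genes were tested as log2(scaled TPM + 1) with limma 3.58.1 in R 4.3.3, with a trend on mean expression and two-sided Benjamini-Hochberg adjustment at 0.05 over all genes. This scale understates changes of genes with low TPM. Errors after ± are SE from limma. The fits were the 3 HSC/P libraries, the 4 Ly6G+ libraries (RUNX1 mutation and HMGA2-OE, additive), all 7 libraries (mutation, HMGA2-OE and cell type, additive) and the 5 HMGA2-OE libraries (mutation by cell type). Of the members, 9 passed the filter in each fit and Runx1t1 did not. The procedure was tested on simulated data. Figures used Python 3.11.15 and matplotlib 3.10.9.

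The labels do not say whether same-group libraries were prepared apart, so p-values measure the spread between these libraries only. The members, the marker and pathway lists and the tests were chosen with earlier results of these data known. All members are named in every library. From each pathway list the 4 genes with the smallest p in the 7-library mutation term were named among those reaching 10 TPM, since none passed; some of these are not reported here. For Runx1 and Runx3 the 5 most similar genes were named, clone names and pseudogenes left out. S100a8, Gm16224, Runx2os1 and the pair values were chosen after their values were seen. Other settings tried were a pseudocount of 0.1, no filter, a filter at 5 TPM, other scaling, no variance trend and leaving out libraries.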

Additional observations from a re-analysis of the deposited data

How the results depend on the processing

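Calls over all genes depended on the scaling. Without scaling the mutation gave 1 called gene in HSC/P, 133 in Ly6G+ cells and 38 in the 7-library fit, and HMGA2-OE gave 61 in Ly6G+ cells, against 0 for each with scaling. The median of all genes then moved to 0.14, 0.58, 0.38 and 0.13 on the log2 scale. Runx3 and Runx1 passed for the mutation only there, as given above; in the other settings tried neither passed for the mutation. For the interaction, no filter gave 3250 calls and a filter at 5 TPM gave 1, against 0. Members with no overlap in both cell types were 6 without scaling, against 3. The count for HSC/P minus Ly6G+ was 8296, and between 6584 and 8215 with 1 library left out.

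Signs changed for values near 0 or on unscaled TPM. Without scaling the mutation term of Tle3 was 0.38, the HMGA2-OE term of Cbfb 0.0246, and the interaction -0.95 for Cbfb and -0.10 for Tle1. HSC/P minus Ly6G+ was 0.41 for Runx2, 0.16 for Tle1 and 0.76 for Hipk2. In the single pair of HMGA2-OE HSC/P over HMGA2-OE Ly6G+ it was 0.89 for Runx2, 0.20 for Tle1, 1.35 for Hipk2 and 2.19 for Runx1. With scaling this pair, which has no replicate, gave -1.26 for Runx2, -1.74 for Tle1, -0.86 for Hipk2 and -0.00894 for Runx1. Without scaling HMGA2-OE over Control in Ly6G+ cells was -0.15 for Runx1 and -0.09 for Runx2. RUNX1mut/HMGA2-OE over RUNX1mut was then 0.40 for Cbfb and 0.20 for Cbfa2t3. The Cbfb interaction was -0.0327 with upper-quartile scaling and -0.0389 without replicate 1 and -0.000762 without replicate 2 of the mutant HSC/P. The 7-library mutation term of Hipk2 was -0.0887 without HMGA2-OE Ly6G+ and -0.0537 without RUNX1mut/HMGA2-OE Ly6G+. The cause was not tested. Settings for the non-overlap counts, the scaled marker sums and the pair across cell types, were added after seeing the data. No paired analysis was possible because the groups share fewer than 2 replicate numbers. The sample titles do not say whether HSC/P and Ly6G+ libraries came from the same mice, and the fits treat them as independent.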
